A study of Mus musculus with 12 samples.

Results

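Mouse primordial germ cell-like cells (PGCLCs) were compared after 5 and after 3 days of expansion culture, in 2 libraries each, 4 of the 12 libraries of the study. PGCLCs are germ cell precursors made from embryonic stem cells by way of epiblast-like cells, here with BMP4, LIF, SCF and EGF. They were sorted by Blimp1-mVenus fluorescence on day 4 of induction and expanded on m220 feeder cells, mainly a subline grown from single cells and resistant to mitomycin C. The cells called d4c5, d4c3 and d4c7 were sorted again by the same fluorescence after 5, 3 and 7 days of that culture. All were of strain C57BL/6 and carried the Blimp1-mVenus and Stella-ECFP reporters (BVSC), so d4c3 is the earliest culture time and not an untreated control. Germ cells sorted by Stella-EGFP fluorescence from male and from female E12.5 embryos and from E9.5 embryos of mixed ICR and C57BL/6 background gave a separate contrast in vivo. Each of these 6 groups had 2 libraries of amplified 3′-end RNA-seq, from 10 ng of RNA for culture and 1 ng for embryos. The labels do not say that the 2 libraries of a group came from separate cultures or embryos, and p-values therefore speak of the spread between libraries, which may be technical.

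Germ cells erase DNA methylation as they migrate and settle in the gonad, and a group of germline genes that methylation and repressive complexes keep silent in other cells then comes on. Among the last of these to be expressed are genes of the piRNA pathway, which silences transposons, and of the meiotic chromosome axis. Imprinted genes, expressed from a single parental allele, lose their marks over the same period. The title of the series places expanded PGCLCs at such an epigenetic blank slate.

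Values are RPM from the authors' table, reads scaled to a common library total, differences are on the scale of log2(RPM + 1), and errors of differences are standard errors (SE) of a limma model across 10856 genes of 26218 gene rows. A gene was called at an adjusted p under 0.05 (Benjamini-Hochberg over all genes tested). The germ cell markers Prdm1, Tfap2c, Dppa3 and Kit were present in all culture libraries, and globin genes Hbb-y, Hba-x and Hbb-bh1 were at 0 there. Prdm1 is the gene of the Blimp1-mVenus reporter used for the sort. Estimated depth was 2219175 to 5817990 reads in genes, and a value of 0 allows up to 1.36 RPM in the shallowest library and 0.517 RPM in the deepest. ERCC spike-in RNAs summed to 59.6 to 72.7 RPM in 5 culture libraries and to 0 in d4c7 replicate 2. Libraries of d4c5 differed from each other by a root mean square of 0.49 on the log2 scale and those of d4c3 by 0.42. The value was 0.56 for d4c7, 0.33 for E9.5, and 0.40 for E12.5 males and for E12.5 females. On the main axis of variation among culture libraries (42.2% of the variance) d4c5 replicate 1 lay at 22.3 and replicate 2 at -10.4, against -22.1 and -24.3 for d4c3, so replicate 1 was farther from day 3.

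From day 3 to day 5 of expansion a small group of germline genes came up and the imprinted gene Phlda2 went down. Of the genes tested, 9 (0.0829%) were called, 7 higher (0.0645%) and 2 lower (0.0184%) in d4c5. These 9 are the first responders. Those described here are Dazl, Trpm1, Rbm44, Hormad1, Aurkc, Gpat2 and Fkbp6, which were higher, and Phlda2, which was lower. For all 9 the d4c5 libraries did not overlap those of d4c3, as was so for 38.7% of all genes. At an unadjusted p under 0.05 there were 967 genes (8.91%), and the median difference over all genes was 0.0075. Since the spread was pooled over all 6 groups, the calls rest on it: limma fitted to the 4 libraries alone called 0 genes, with 805 under 0.05 before adjustment. Fitted to the 6 culture libraries alone it called 0, with 638 under 0.05 before adjustment. For genes at or near 0 in the embryo, such as Trpm1 and Dnmt3l, the embryonic libraries add little spread. The SE and p-values of such genes may therefore be too small for culture.

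**Figure D1:**
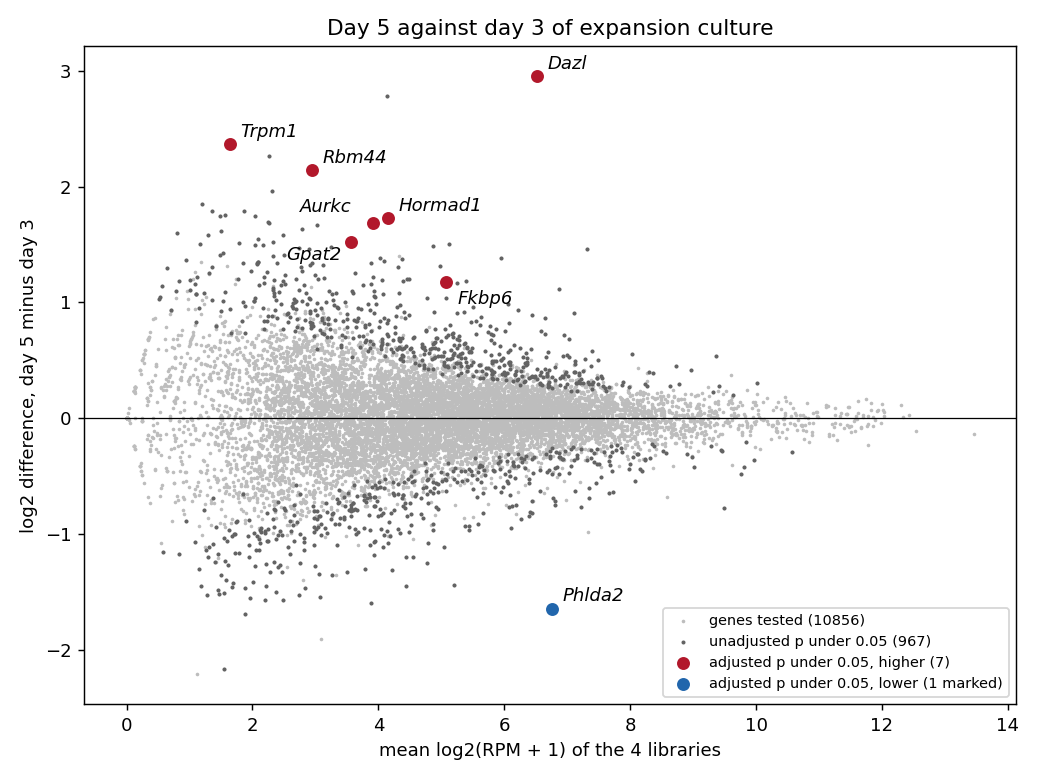
Log2 difference of d4c5 minus d4c3 (vertical) against the mean log2(RPM + 1) of the 4 libraries (horizontal) for the 10856 genes tested, each point a gene, with the 967 at an unadjusted p under 0.05 in dark grey. The 7 genes called higher lie from 1.17 (Fkbp6) to 2.96 (Dazl), and Phlda2 lies at -1.65. Some genes not called lie as far from 0, such as Dnmt3l at 2.78 and Fndc3c1 at -2.16.

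The largest rise among the called genes was that of Dazl (NCBI gene 13164, chromosome 17, 50279393 to 50293620, GRCm38.p6), which encodes an RNA-binding protein that germ cells need to leave the pluripotent programme and enter gametogenesis. It had 376 and 171 RPM in d4c5, against 32.5 and 31.1 RPM in d4c3. Both d4c5 libraries lay above both d4c3 libraries, with replicate 1 the higher. The difference was 2.96 ± 0.29 (SE, n = 2 each; limma, adjusted p = 0.000338).

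The germ cell RNA-binding protein gene Rbm44 (NCBI gene 329207, chromosome 1, 91144973 to 91170799), whose product in mouse testis sits at the bridges between germ cells, had 19.4 and 11.7 RPM in d4c5, against 3.13 and 2.22 RPM in d4c3. The groups did not overlap, and the difference was 2.14 ± 0.28 (SE; limma, adjusted p = 0.00745). The predicted gene Gm35443 overlaps it, and since the sources used here do not say that counting kept the strands apart, reads of the pair cannot be told apart.

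Hormad1 (NCBI gene 67981, chromosome 3, 95559677 to 95587863) encodes a protein of the meiotic chromosome axis. It had 40.3 and 24.2 RPM in d4c5, against 8.21 and 9.32 RPM in d4c3, a difference of 1.73 ± 0.26 (SE; limma, adjusted p = 0.0185). Its d4c5 libraries were apart from each other but both were above the d4c3 libraries. The predicted gene Gm40097 overlaps it. Aurkc (NCBI gene 20871, chromosome 7, 6995347 to 7003091), the Aurora kinase of meiotic divisions, had 26.5 and 25.4 RPM in d4c5, against 8.21 and 6.58 RPM in d4c3. Replicates agreed closely at either time, and the difference was 1.69 ± 0.29 (SE; limma, adjusted p = 0.0482).

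Fkbp6 and Gpat2 act in making piRNAs in mouse germ cells, Fkbp6 as an immunophilin-like partner of the piRNA machinery and Gpat2 as a mitochondrial membrane protein. Fkbp6 (NCBI gene 94244, chromosome 5, 135291704 to 135351809) had 59.8 and 41.3 RPM in d4c5, against 21.5 and 21.5 RPM in d4c3, and rose by 1.17 ± 0.18 (SE; limma, adjusted p = 0.0185). Gpat2 (NCBI gene 215456, chromosome 2, 127425154 to 127436093) had 20.3 and 18.1 RPM in d4c5, against 5.09 and 7.10 RPM in d4c3, and rose by 1.52 ± 0.25 (SE; limma, adjusted p = 0.0456). For neither gene did the groups overlap.

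Trpm1 (NCBI gene 17364, chromosome 7, 64153835 to 64269772) is no germline gene in textbooks: it encodes a cation channel of melanocytes and of bipolar cells in the retina, and hosts Mir211 and Mir6416. It had 5.84 and 6.32 RPM in d4c5, against 0 and 0.887 RPM in d4c3. The d4c3 values lie under what 3 reads would give (1.17 and 1.33 RPM), so the fitted difference of 2.37 ± 0.40 (SE; limma, adjusted p = 0.0456) depends on the pseudocount and is no measure of the fold.

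Among the genes called lower, Phlda2 (NCBI gene 22113, chromosome 7, 143501545 to 143503145) is an imprinted gene expressed from the maternal allele, whose product restrains growth of the placenta. It had 63.9 and 56.5 RPM in d4c5, against 173 and 208 RPM in d4c3, and fell by 1.65 ± 0.14 on the log2 scale (SE; limma, adjusted p = 0.000135).

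**Figure D2:**
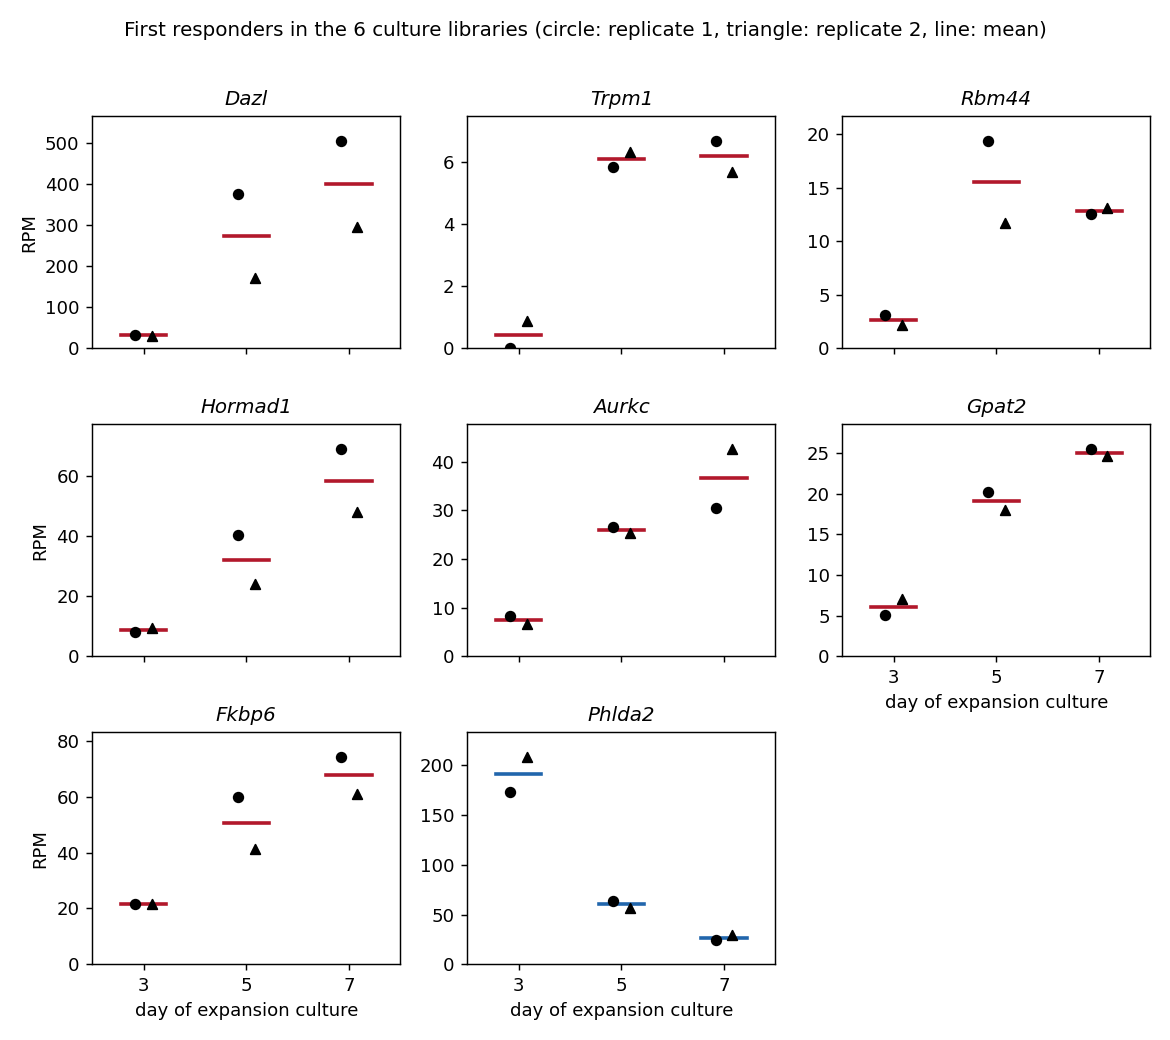
RPM (vertical, linear from 0, own scale for each gene) of the 8 first responders described here by day of expansion culture (horizontal), with a circle for replicate 1, a triangle for replicate 2 and a line at the mean of 2 libraries. In each of the 7 red genes both day 5 points lie above both day 3 points, and in the blue gene, Phlda2, both lie below, at 63.9 and 56.5 RPM on day 5 against 173 and 208 RPM on day 3.

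How firmly each call stood differed between genes. All 9 kept their direction in every alternative that held them, and Trpm1 was not in the fit at RPM of at least 20. Since their groups did not overlap, leaving out a library could not have changed the direction, so this adds no support. Dazl and Phlda2 remained called in each of the 6 fits that left out a single culture library. Rbm44 remained called in 4 of these fits, Hormad1 and Fkbp6 in 3, and Trpm1, Aurkc and Gpat2 in 2. Without d4c3 replicate 1 a total of 3 genes were called, without d4c3 replicate 2 or d4c5 replicate 1 there were 2, and without d4c5 replicate 2 there were 26. Leaving out a d4c7 library, which enters this comparison only through the pooled spread, gave 61 calls without replicate 1 and 60 without replicate 2.

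Just outside the threshold, at an adjusted p of 0.0538 (limma), stood Tuba3a, Tuba3b, Smc1b, Ddx19b and Echdc2, all with higher means in d4c5. Tuba3a, a tubulin gene of the testis, had 13.6 and 16.3 RPM in d4c5, against 4.30 and 5.10 RPM in d4c3. Tuba3b is a near-identical copy, so the division of reads between the pair is uncertain. Smc1b, the cohesin subunit of meiosis, had 25.3 and 27.6 RPM in d4c5, against 12.52 and 13.8 RPM in d4c3. The fits without d4c7 replicate 1 and without d4c7 replicate 2 give the same differences of d4c5 minus d4c3. They also take the spread from the same other groups, so a call in both is no agreement of separate fits. Smc1b, Tuba3a and the other 3 were also among the 60 genes (35 higher, 25 lower) called both without d4c7 replicate 1 and without d4c7 replicate 2. Of the 35 higher ones, 12 belonged to the lists of late germ cell, piRNA or meiosis genes, which hold 49 (0.451%) of the genes tested and were chosen with earlier results of these data known. The 12 are Dazl, Rbm44, Fkbp6, Hormad1, Gpat2, Smc1b, Tuba3a, Stag3, Hsf2bp, Ddx4, Piwil2 and Stk31.

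Promoters of 5 first responders are printed because the genes moved at the same time, to show which sequence motifs of germline gene repression they hold. Each runs 5′ to 3′ from 250 bases before to 50 after a start listed in RefSeq on GRCm38.p6. Those of Fkbp6 and Phlda2 lie inside the spans given above for these genes, so they are not at the outer end of the span. Capitals mark TCCCGC or its reverse complement GCGGGA, the core of an E2F motif, and CACGTG, an E-box. As background, E2F6 and the MGA and MAX pair of a Polycomb complex bind such motifs at germline genes in embryonic stem cells. The windows lie at chr3:95559427-95559726 on the plus strand (Hormad1), chr5:135349995-135350294 on the minus strand (Fkbp6), chr2:127424949-127425248 on the plus strand (Gpat2), chr17:50293571-50293870 on the minus strand (Dazl) and chr7:143502475-143502774 on the minus strand (Phlda2).
Hormad1: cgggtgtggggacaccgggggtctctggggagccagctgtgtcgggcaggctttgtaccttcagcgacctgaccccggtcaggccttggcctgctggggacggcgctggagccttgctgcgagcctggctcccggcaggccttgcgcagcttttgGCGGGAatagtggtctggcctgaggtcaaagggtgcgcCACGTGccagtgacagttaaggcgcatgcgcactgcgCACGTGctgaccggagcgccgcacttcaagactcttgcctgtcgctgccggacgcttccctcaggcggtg
Fkbp6: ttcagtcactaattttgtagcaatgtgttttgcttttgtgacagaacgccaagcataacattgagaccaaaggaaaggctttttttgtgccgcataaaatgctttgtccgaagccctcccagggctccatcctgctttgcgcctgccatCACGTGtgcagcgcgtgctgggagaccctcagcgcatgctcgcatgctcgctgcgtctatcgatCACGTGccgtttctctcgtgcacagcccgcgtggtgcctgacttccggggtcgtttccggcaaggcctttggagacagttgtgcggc
Gpat2: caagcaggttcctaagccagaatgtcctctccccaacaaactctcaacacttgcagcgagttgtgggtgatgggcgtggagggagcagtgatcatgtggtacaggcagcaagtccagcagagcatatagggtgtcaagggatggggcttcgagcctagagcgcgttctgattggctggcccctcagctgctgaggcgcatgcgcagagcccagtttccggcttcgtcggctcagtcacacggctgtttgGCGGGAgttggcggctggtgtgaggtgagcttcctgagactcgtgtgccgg
Dazl: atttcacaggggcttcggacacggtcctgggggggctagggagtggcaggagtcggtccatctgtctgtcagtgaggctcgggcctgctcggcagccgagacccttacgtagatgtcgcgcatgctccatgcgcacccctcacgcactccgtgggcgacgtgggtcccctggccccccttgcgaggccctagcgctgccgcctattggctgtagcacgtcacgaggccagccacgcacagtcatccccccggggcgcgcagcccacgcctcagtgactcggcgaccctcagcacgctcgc
Phlda2: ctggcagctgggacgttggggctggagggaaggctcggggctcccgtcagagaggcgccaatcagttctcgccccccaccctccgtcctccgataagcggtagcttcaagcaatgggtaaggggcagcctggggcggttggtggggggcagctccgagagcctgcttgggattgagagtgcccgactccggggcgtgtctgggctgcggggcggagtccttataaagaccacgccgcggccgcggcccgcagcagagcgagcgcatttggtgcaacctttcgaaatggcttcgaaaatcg

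The Hormad1 window held 1 E2F core and 2 E-boxes, that of Fkbp6 held 2 E-boxes, and that of Gpat2 held 1 E2F core. Neither motif occurs in the windows of Dazl or Phlda2, nor in that of Aurkc (not printed). Of the 2 windows listed for Trpm1, 1 held an E-box, and for Hormad1 and Fkbp6 the first of 2 listed is shown. Over 10812 promoters of genes tested, 36.3% held TCCCGC on either strand, 10.4% held CACGTG and 3.9% held both. CpG dinucleotides numbered 28 in the Dazl window, 26 in Phlda2, 24 in Hormad1, 21 in Fkbp6, 15 in Gpat2 and 6 in Aurkc, beside a median of 21 in promoters of genes tested. A match is a description of letters and not evidence of a bound site. Rbm44 is named without a promoter.

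Gene by gene, late germ cell transcripts were the list with the highest median in d4c5. Of 25 tested members of 30, 4 were called higher (Dazl, Rbm44, Hormad1 and Fkbp6; background 0.0645%) and 0 lower. At an unadjusted p under 0.05, 12 were higher (background 5.06%) and 0 lower, and 24 of 25 had the higher mean in d4c5 (51% of all genes). The median difference was 0.78, beside 0.0075 over all genes tested. The list was chosen with earlier results of these data known, so its direction is no independent evidence. The vasa helicase gene Ddx4 had 120 and 72.3 RPM in d4c5, against 50.5 and 42.7 RPM in d4c3 (0.99 ± 0.21, SE; limma, adjusted p = 0.117). Stk31, a germ cell kinase gene, had 58.1 and 38.4 RPM in d4c5, against 21.5 and 23.5 RPM in d4c3 (limma, adjusted p = 0.158).

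Not every late germ cell gene moved with Dazl. Mov10l1, a helicase gene of piRNA precursors, had 6.23 and 7.68 RPM in d4c5, against 7.43 and 4.88 RPM in d4c3, and Gtsf1 had 1.95 and 2.26 RPM in d4c5, against 2.35 and 1.77 RPM in d4c3. Those groups overlapped. The synaptonemal complex gene Sycp3 had 12.47 and 10.4 RPM in d4c5, against 8.997 and 3.99 RPM in d4c3, without passing the test (limma, adjusted p = 0.563). The list did not move evenly between libraries: d4c5 replicate 1 was above replicate 2 in 19 of 25 members (44.8% of all genes tested), and its mean log2(RPM + 1) was 4.36 in replicate 1 and 3.96 in replicate 2 of d4c5, against 3.36 and 3.28 in d4c3. Even the lower d4c5 library was above both d4c3 libraries.

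The piRNA pathway list shares several genes with that list. Of 17 tested members of 22, 2 were called higher (Fkbp6 and Gpat2; background 0.0645%) and 0 lower. At an unadjusted p under 0.05, 7 were higher (background 5.06%) and 0 lower (background 3.85%). The higher mean was in d4c5 for 16 (51% of all genes), and the median was 0.63. Piwil2, a PIWI protein gene that loads piRNAs, had 85.7 and 79.5 RPM in d4c5, against 52.8 and 44.8 RPM in d4c3 (0.75 ± 0.16, SE; limma, adjusted p = 0.117). The exception was the tudor domain gene Tdrd5, with 17.5 and 33.4 RPM in d4c5, against 34.8 and 31.1 RPM in d4c3.

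Among meiosis genes 1 of 22 tested members was called higher (Hormad1; background 0.0645%) and 0 lower. At an unadjusted p under 0.05, 6 were higher (background 5.06%) and 0 lower (background 3.85%), and the median was 0.33. Those nearest to a call were Smc1b, described above, Stag3 and Hsf2bp. Stag3, a meiotic cohesin subunit gene, had 53.4 and 48.8 RPM in d4c5, against 23.1 and 31.1 RPM in d4c3 (0.91 ± 0.17, SE; limma, adjusted p = 0.0559). Hsf2bp, a partner of the recombination protein BRCA2 in meiosis, had 33.1 and 31.6 RPM in d4c5, against 12.1 and 15.1 RPM in d4c3 (limma, adjusted p = 0.0693). The recombination genes Spo11 and Dmc1 overlapped between the groups, Spo11 at 1.56 and 2.26 RPM in d4c5, against 1.17 and 3.55 RPM in d4c3.

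Imprinted genes did not move as a block. Of 31 tested members, 1 was called lower (Phlda2; background 0.0184%) and 0 higher, and the median was -0.01. Yet at an unadjusted p under 0.05, 7 were lower (background 3.85%) and 2 higher (background 5.06%). Without overlap of the groups, 11 members were lower (background 17.9%) and 2 higher (background 20.8%). Igf2, the growth factor gene in the same chromosome region as Phlda2, had 2.34 and 6.32 RPM in d4c5, against 14.1 and 12.9 RPM in d4c3 (-1.55 ± 0.38, SE; limma, adjusted p = 0.167). H19, the noncoding RNA gene beside it, had 28.1 and 33.0 RPM in d4c5, against 58.3 and 59.9 RPM in d4c3 (limma, adjusted p = 0.355). Igf2 is normally expressed from the paternal allele and H19 from the maternal, and the means of both were lower in d4c5. Cd81, a tetraspanin gene of the list that lies between these and Phlda2 on chromosome 7, went the other way, with 42.1 and 48.8 RPM in d4c5, against 27.4 and 26.6 RPM in d4c3 (0.73 ± 0.21, SE; limma, adjusted p = 0.271). Peg3, a paternally expressed gene, had 422 and 339 RPM in d4c5, against 359 and 322 RPM in d4c3, and its groups overlapped.

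**Figure D3:**
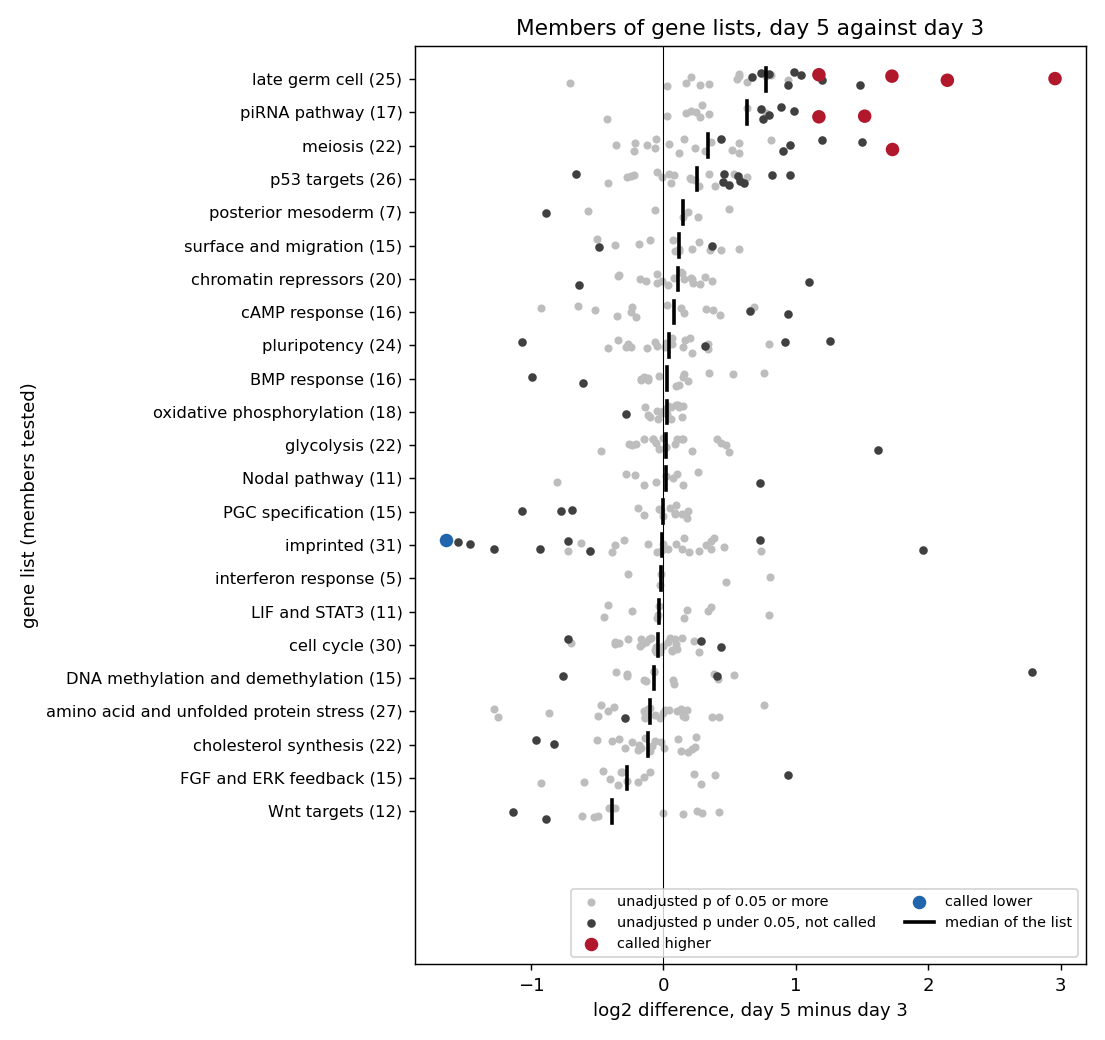
Log2 difference d4c5 minus d4c3 (horizontal) of each tested member of the gene lists (rows, ordered by median, number of members in brackets), each point a gene, with called genes as large coloured points and a bar at each list's median. The late germ cell, piRNA and meiosis lists lie at the top with medians of 0.78, 0.63 and 0.33, and the called gene below 0 in the imprinted list is Phlda2.

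Genes of PGC specification and of pluripotency held no call. Of the 15 PGC specification genes 0 were called by limma, though 3 were lower (background 3.85%) and 0 higher at an unadjusted p under 0.05, and their median difference was 0. Prdm1, the BLIMP1 gene that drives one of the reporters, had 109 and 105 RPM in d4c5, against 106 and 113 RPM in d4c3. Cells of each time were sorted by that reporter, so a steady Prdm1 value is not separate from the sort. Tfap2c, which encodes a transcription factor of PGC fate, had 159 and 214 RPM in d4c5, against 185 and 170 RPM in d4c3. The 3 lower ones were Dnd1, Ifitm3 and Lin28a. Dnd1, an RNA-binding protein gene needed for germ cell survival, had 86.1 and 84.5 RPM in d4c5, against 150 and 128 RPM in d4c3 (-0.69 ± 0.14, SE; limma, adjusted p = 0.0707). Ifitm3, a surface protein gene marking PGCs, had 436 and 696 RPM in d4c5, against 898 and 992 RPM in d4c3 (limma, adjusted p = 0.202).

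The pluripotency list was likewise near 0 (median 0.05 over 24 genes, 0 called by limma). At an unadjusted p under 0.05, 3 were higher (background 5.06%) and 1 lower (background 3.85%). Pou5f1, the core pluripotency factor gene, had 502 and 520 RPM in d4c5, against 630.0 and 495 RPM in d4c3. Fgf4, a growth factor gene of pluripotent cells, had 3.51 and 2.26 RPM in d4c5, against 0.782 and 0.444 RPM in d4c3, the d4c3 values being under the level of 3 reads (limma, adjusted p = 0.357). It had 12.6 and 6.03 RPM in d4c7 and was called there against d4c3 (limma, adjusted p = 0.00456). Among genes of DNA methylation, Dnmt3l, the partner of the de novo methyltransferases, had 65.1 and 31.2 RPM in d4c5, against 1.96 and 14.2 RPM in d4c3. Its groups did not overlap, but its replicates were far apart and it was not called (2.78 ± 0.69, SE; limma, adjusted p = 0.177). The p53 targets had a median of 0.25 with 0 of 26 called by limma and 8 higher and 1 lower at an unadjusted p under 0.05 (background 5.06% and 3.85%). Trp53inp1, a p53-induced gene, had 217 and 194 RPM in d4c5, against 134 and 141 RPM in d4c3 (0.58 ± 0.11, SE; limma, adjusted p = 0.0707).

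Among the signalling lists the lowest median was that of Wnt targets, -0.39 over 12 genes. At an unadjusted p under 0.05, 2 were lower (background 3.85%) and 0 higher. The list was low in culture, with a mean log2(RPM + 1) of 1.63 and 1.626 in d4c5, against 1.933 and 1.876 in d4c3. Of the lower genes, Cdx1 was under the level of 3 reads in d4c5 (0.390 and 0.452 RPM, against 1.96 and 1.33 RPM in d4c3). Axin2, the feedback inhibitor of Wnt signalling, had 3.90 and 3.61 RPM in d4c5, against 12.52 and 7.10 RPM in d4c3 (-1.14 ± 0.34, SE; limma, adjusted p = 0.276). Genes of FGF and ERK feedback had a median of -0.27 over 15, with 1 higher (background 5.06%) and 0 lower at an unadjusted p under 0.05. Their mean log2(RPM + 1) was 4.199 and 4.599 in d4c5, against 4.669 and 4.425 in d4c3. Replicate 2 of d4c5 thus lay between the d4c3 libraries. In the BMP response list (median 0.03 over 16) Msx2, a homeobox target of BMP, had 11.3 and 15.8 RPM in d4c5, against 24.6 and 31.1 RPM in d4c3 (limma, adjusted p = 0.276). Genes of cholesterol synthesis had a median of -0.12 over 22, with 2 lower (background 3.85%) and 0 higher at an unadjusted p under 0.05. Cell cycle, glycolysis and oxidative phosphorylation lists had medians of -0.04, 0.02 and 0.03.

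Transcripts of the feeder or other stromal cells were looked at because cells were grown on feeders. Of 17 stromal genes 11 were tested, 0 were called by limma and 5 had the higher mean in d4c5. At an unadjusted p under 0.05, 2 were higher (background 5.06%) and 2 lower (background 3.85%). The 17 genes summed to 1036 and 1107 RPM in d4c5, against 1251 and 1281 RPM in d4c3. Most of this sum came from Lgals1, Sparc and Fn1, which the sorted E12.5 germ cells also held. The fibroblast surface gene Thy1 was at 0 in all 4 libraries, but Col3a1, a fibrillar collagen gene, had 39.7 RPM in replicate 1 and 0.904 RPM in replicate 2 of d4c5, against 4.69 and 4.44 RPM in d4c3. Dcn, a matrix proteoglycan gene that is on both the stromal and the imprinted list, had 39.7 and 1.36 RPM in d4c5, against 2.35 and 0.887 RPM in d4c3. Col1a1, Cav1 and S100a4 had 5.45, 4.68 and 3.90 RPM in d4c5 replicate 1, against 1.81, 0 and 0.904 RPM in replicate 2. In d4c3 they were under the level of 3 reads. Lum and Pdgfra had the same order in d4c5 at lower values, whereas Fn1 had 171 and 397 RPM. The sum, carried by abundant genes, does not show this difference between replicates. Markers of other cell types held 0 calls. The neural list (7 genes, 4 tested) had 1 higher at an unadjusted p under 0.05 (background 5.06%). It summed to 93.6 and 105 RPM in d4c5, against 60.6 and 74.7 RPM in d4c3. Most of that sum came from Pax6, a transcription factor gene of eye and brain. Pax6 had 63.5 and 72.7 RPM in d4c5, against 37.6 and 43.0 RPM in d4c3 (0.74 ± 0.18, SE; limma, adjusted p = 0.163). The neural marker Neurog1 was at 0 in all 4 libraries. The part of these transcripts in the calls was not tested. In bulk libraries, fewer cells carrying a transcript and less of it in each cell cannot be told apart.

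To separate these first responders from genes that passed the test only later, d4c7 was added. Against d4c3, d4c7 had 298 called genes (2.75%), 181 higher (1.67%) and 117 lower (1.08%), among them all 9 first responders, which share the d4c3 libraries in that comparison. The count was 31 without d4c3 replicate 1, 140 without d4c3 replicate 2, 786 without d4c7 replicate 2 (329 higher and 457 lower), and 32 in the culture libraries with the replicate number as a block. Late movers were defined as genes called in d4c7 against d4c3, with a difference under 0.5 at day 5 and an unadjusted p under 0.05 between d4c7 and d4c5 in the same direction. There were 28 late movers higher and 32 lower, and the remaining called genes, 146 higher and 83 lower, were intermediate. The 60 late movers became 3 without d4c3 replicate 1, 11 without d4c3 replicate 2, 95 without d4c5 replicate 1, 31 without d4c5 replicate 2, 134 without d4c7 replicate 1, 308 without d4c7 replicate 2 and 3 under the replicate block. The rule limits the step at day 5 and does not require that there was none: 45 of the 60 had d4c5 libraries that did not overlap those of d4c3 (background 38.7%), and 13 had an unadjusted p under 0.05 (background 8.91%). These contrasts share libraries and the rule uses their differences, so the classes are described here and not tested. Between d4c7 and d4c5 themselves only Stra8 (higher) and Phlda2 (lower) were called, 0.00921% of genes in each direction, with 610 genes (5.62%) at an unadjusted p under 0.05. Both calls were lost (limma, 0 called) without d4c5 replicate 1 (736 at an unadjusted p under 0.05), without d4c5 replicate 2 (519) and under the replicate block (535), and without d4c7 replicate 1 there were 30.

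**Figure D4:**
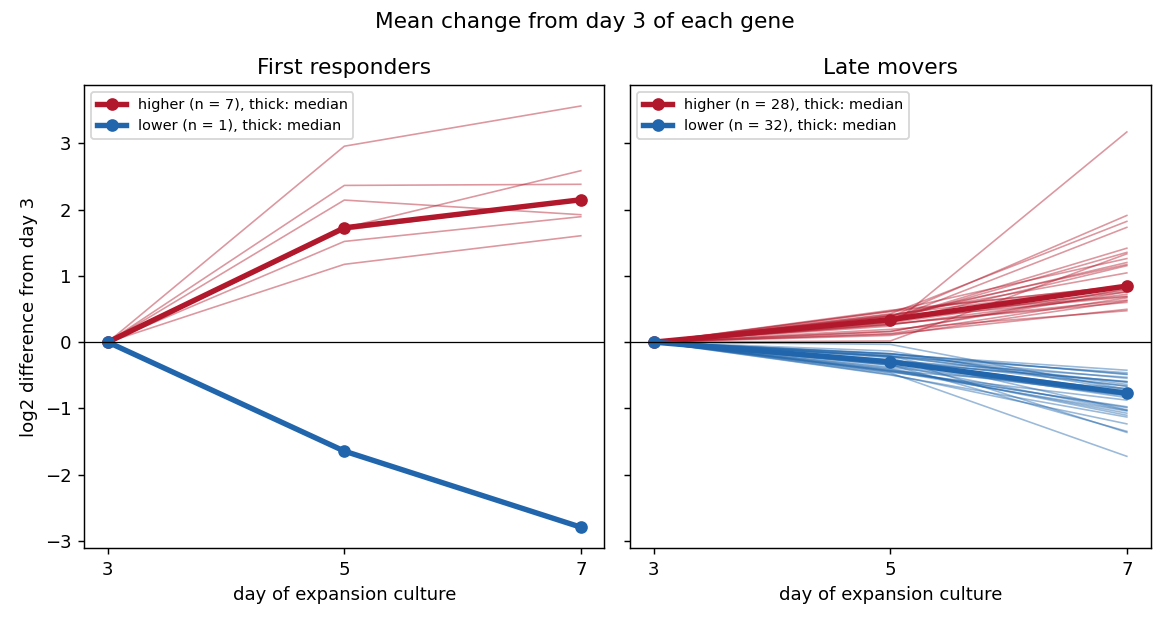
Difference from the day 3 mean on the log2(RPM + 1) scale (vertical) by day of culture (horizontal) for the 8 first responders described here (left) and late movers (right), thin lines being genes and thick lines the medians of higher (red) and lower (blue) genes. The red median of first responders is 1.73 at day 5 and 2.15 at day 7, whereas that of late movers is 0.34 and then 0.85. The rule that defines late movers keeps them within 0.5 of day 3 at day 5.

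Phlda2 went on falling, with 24.3 and 29.0 RPM in d4c7, against 63.9 and 56.5 RPM in d4c5 (-1.15 ± 0.14, SE; limma, adjusted p = 0.0114). The other 8 did not pass between d4c7 and d4c5, with differences from -0.22 for Rbm44 to 0.86 for Hormad1 among the 7 higher genes. Dazl had 505 and 296 RPM in d4c7, against 376 and 171 RPM in d4c5 (0.61 ± 0.29, SE; 95% interval -0.01 to 1.22). Trpm1 had 6.68 and 5.69 RPM in d4c7, against 5.84 and 6.32 RPM in d4c5 (interval -0.83 to 0.87), and its groups overlapped.

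Stra8, the retinoic acid-induced gatekeeper of meiosis, was the late mover with the largest rise. It had 0 and 0.444 RPM in d4c3, 0.390 and 0.452 RPM in d4c5, and 10.99 and 8.79 RPM in d4c7. At day 3 and day 5 it was under the level of 3 reads. The difference of d4c7 minus d4c5 was 2.93 ± 0.38 (SE; limma, adjusted p = 0.0125).

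Other late movers were of mixed function. Lefty2, a Nodal antagonist gene, had 5.48 and 9.32 RPM in d4c3, 8.96 and 5.87 RPM in d4c5, and 24.5 and 15.6 RPM in d4c7. Hadh, an enzyme gene of fatty acid oxidation, had 80.2 and 96.7 RPM in d4c3, 109 and 124 RPM in d4c5, and 177 and 225 RPM in d4c7. Smurf1, a ubiquitin ligase gene that limits BMP signalling, had 8.61 and 9.76 RPM in d4c3, 14.03 and 9.94 RPM in d4c5, and 32.6 and 19.13 RPM in d4c7. In all 3 genes the d4c7 libraries were above every earlier library. Rn45s, the ribosomal RNA precursor, was also among them, with 10.95 and 21.3 RPM in d4c3, 21.0 and 18.5 RPM in d4c5, and 45.6 and 39.8 RPM in d4c7.

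Among the 32 that went down late, Habp4, which encodes an RNA-binding protein, had 72.4 and 46.1 RPM in d4c3, 43.1 and 55.8 RPM in d4c5, and 18.8 and 25.3 RPM in d4c7. Klf8, a Krüppel-like factor gene, had 62.8 and 61.9 RPM in d4c3, 57.3 and 64.6 RPM in d4c5, and 35.9 and 39.4 RPM in d4c7. Nbn, a DNA break sensor gene, had 44.98 and 49.2 RPM in d4c3, 40.9 and 44.7 RPM in d4c5, and 29.4 and 26.7 RPM in d4c7. Day 5 values of Klf8 lay on either side of the day 3 range, so its fall was seen at day 7 alone. Tes lay just inside the rule at day 5 (-0.49) and Jakmip1 just outside it (-0.51).

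The differences between E12.5 and E9.5 were not used to choose these genes, but the embryonic libraries did enter the filter and the pooled spread behind the calls, and without them limma called 0 genes between d4c5 and d4c3 (638 at an unadjusted p under 0.05). The 2 kinds of contrast are therefore not fully independent. Between E12.5 and E9.5 in vivo, 37.7% of genes were called in males and 37.5% in females. The E9.5 libraries also held blood transcripts. The 11 blood and endothelium genes summed to 4275 and 3793 RPM at E9.5. They summed to 10.5 and 14.9 RPM in E12.5 males and 16.8 and 11.9 RPM in E12.5 females. Hbb-y alone had 1865 and 1669 RPM at E9.5. The part of RNA from other cells in the differences from E9.5 was not tested. Of the 7 first responders that rose in culture, 6 were called higher in E12.5 males (background 20%) and 6 in E12.5 females (background 20.4%), with Trpm1 the exception. Dazl had 1163 and 1185 RPM in E12.5 males and 1245 and 1191 RPM in E12.5 females, against 12.9 and 9.44 RPM at E9.5. The differences were 6.61 ± 0.29 and 6.66 ± 0.29 (SE; limma, adjusted p = 2.76e-09 and 4.88e-09). Hormad1 had 74.1 and 64.6 RPM in males and 108 and 91.7 RPM in females, against 3.68 and 4.72 RPM at E9.5. Rbm44, Aurkc, Gpat2 and Fkbp6 rose by 2.33 to 3.32 in males and 2.63 to 3.87 in females. Trpm1 was at 0 in both male libraries and at 0.303 and 0 RPM in the female ones, against 0 and 0.236 RPM at E9.5, all under the level of 3 reads.

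**Figure D5:**
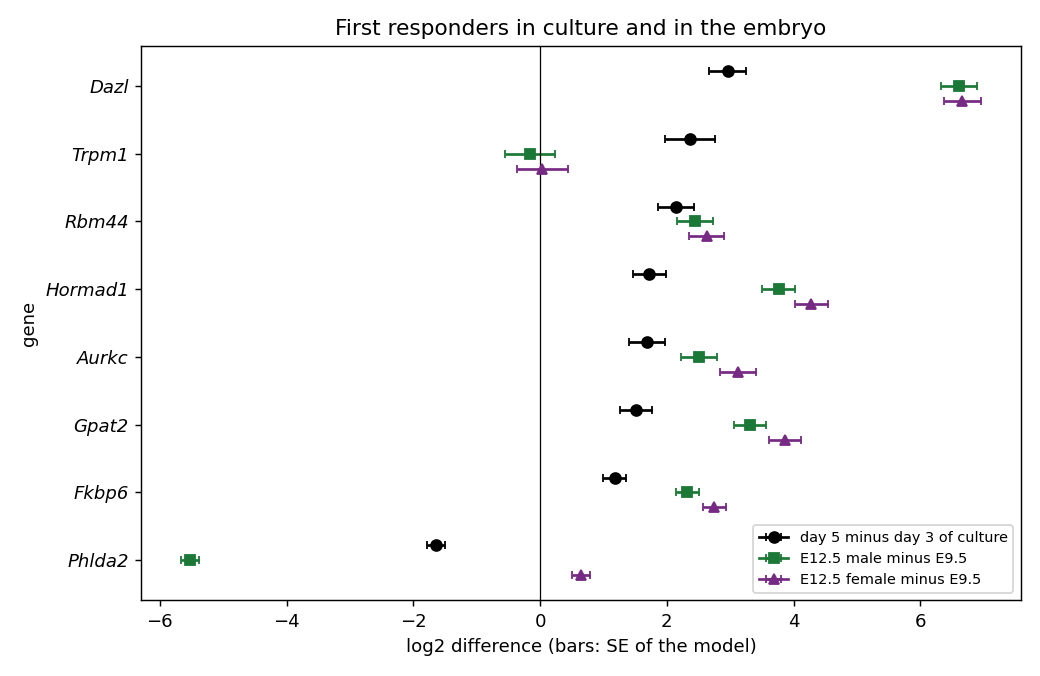
Log2 difference (horizontal, bars are the SE of the model) of the 8 first responders described here (rows) for d4c5 minus d4c3 (black circles), E12.5 male minus E9.5 (green squares) and E12.5 female minus E9.5 (purple triangles). Dazl, Rbm44, Hormad1, Aurkc, Gpat2 and Fkbp6 lie to the right of 0 in all 3 contrasts, Trpm1 lies at 0 in the embryo, and Phlda2 lies at -5.52 in males and at 0.65 in females.

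Phlda2, which fell in culture, parted in the embryo by sex. It had 5.63 and 5.72 RPM in E12.5 males and 468 and 490.3 RPM in E12.5 females, against 304 and 306 RPM at E9.5, and was called lower in males and higher in females. Its fall between d4c5 and d4c3 thus had the sign of the male and not of the female contrast. The sex of the cultured cells is not among the labels used here. The male and the female contrast use the same E9.5 libraries, and culture and embryo differ in strain, reporter, sort and RNA input.

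Late movers were set against the embryonic contrasts in the same way. Of the 28 higher late movers, 11 were called higher and 3 lower in males (background 20% higher and 17.6% lower), and 11 higher and 4 lower in females (background 20.4% and 17.1%), with medians of 0.29 and 0.19. The 32 lower ones had 19 called lower and 4 higher in males (background 17.6% lower) and 13 lower and 2 higher in females (background 17.1%). Intermediate genes that rose, 146 in number, had 96 called higher in males (background 20%) and 87 in females (background 20.4%), with medians of 1.08 and 0.91. Stra8 had 36.99 and 37.97 RPM in E12.5 females and 1.25 and 0.301 RPM in E12.5 males, against 0.735 and 0.236 RPM at E9.5, and was called in females alone (4.72 ± 0.38, SE; limma, adjusted p = 1.24e-06). Lefty2 was higher in males (4.21) and lower in females (-2.45). The enzyme gene Ldha, a late mover that rose in culture, was lower at E12.5 than at E9.5, with differences of -4.61 in males and -3.13 in females. The difference between the classes of genes was not tested.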

How the data were processed

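RNA of 12 libraries was measured by 3′-end RNA-seq, 2 libraries in each of 6 groups named in the labels. The deposited table gives RPM, reads that the authors scaled to a common library total. Build mm10 and the tools TopHat 1.4.1, Cufflinks 2.2.0 and cutadapt 1.3 stand in the submitters' processing notes, without their roles. Low values were whole multiples of 1 read's worth (within 0.1 read) in 81.8% to 87.4% of cases, too few to recover counts, so no count test was run. Depth was estimated from these steps, and floors of 3 reads cover counting error only.

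Genes with RPM of at least 5 in at least 2 libraries (10856 of 26218, with 15362 left out) were analysed as log2(RPM + 1), with the pseudocount of 1, which understates the change of low genes. A limma 3.58.1 model (R 4.3.3; lmFit, contrasts.fit, eBayes with trend) with a mean per group had 6 residual and 8.02 prior degrees of freedom, and intervals are at 95%. Names and positions come from RefSeq on GRCm38.p6 (24619 rows matched, 10497 of those tested).

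The genes, classes and 24 lists (520 entries, 432 tested) were chosen with earlier results of these data known. Named genes are those called, the largest changes of either direction and up to 4 members of each list by p. Also named are the 10 largest late movers each way, 6 that changed direction and 10 fixed germ cell genes. Other list members, Jakmip1, and the genes beside the threshold were named after their values were seen. Results of 2 genes, 1 of them a first responder, and 1 list in the plot of gene lists are not reported here. The alternatives are given in the closing section.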

Additional observations from a re-analysis of the deposited data

Results flagged for a closer look

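Phlda2 changed in opposite directions in the 2 sexes of the embryo, and the difference between the sexes was itself tested. It was 6.17 ± 0.14 higher on the log2 scale in E12.5 females than in E12.5 males (SE; limma, adjusted p = 2.2e-12). The 7 first responders that rose had differences between the sexes from 0.05 to 0.61 (limma, adjusted p = 0.14 to 0.935).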

How the results depend on the processing

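Between d4c5 and d4c3, 9 genes were called. The count was 20 with library medians set to 0, 25 with robust variance moderation, 17 at RPM of at least 20 (7450 genes), 5 with no filter beyond RPM above 0 (18245 genes, with 3 of the 9 among them), and 0 in the 4 libraries alone, in the 6 culture libraries alone and in the 6 culture libraries with the replicate number as a block (limma, 941 at an unadjusted p under 0.05). With pseudocounts of 0.5 and 5 it was 7 and 8. Leaving out 1 culture library gave 2 to 61. Between d4c7 and d4c3 the 298 calls became 112 with no filter, 0 in the 4 libraries (1084 at an unadjusted p under 0.05), 1 in the 6 libraries, 32 under the block, and 31 to 786 leaving out 1 library. Between d4c7 and d4c5 the 2 calls became 1 at RPM of at least 20, 0 with no filter (1035 unadjusted), in the 4 libraries (262), in the 6 libraries (333) and under the block (535), and 0 to 30 leaving out 1 library. The 60 late movers became 101 with pseudocount 5, 25 with no filter, 0 in the 6 libraries, 3 under the block and 3 to 308 leaving out 1 library. The embryonic counts fell to between 2509 and 3940 from 4089 in males and to between 2456 and 3899 from 4069 in females when 1 embryonic library was left out, an alternative added after seeing the data, and the calls of first responders there held in all 6 such fits. Median centring gave 1934 higher and 2111 lower in males, against 2176 and 1913 in the analysis as reported, and 2011 and 2054 in females, against 2216 and 1853. Without the filter these were 2184 and 2513 in males and 2172 and 2337 in females. In these alternatives the cause was not tested, beyond the fewer libraries or genes each holds.

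The labels do not say whether libraries with the same replicate number shared a day, culture or batch. Deviations of same-numbered libraries correlated across genes at 0.116 for d4c5 and d4c3, 0.131 for d4c7 and d4c3 and 0.455 for d4c7 and d4c5, with 2 libraries a group, and no pairing was assumed.

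Of the single-gene values, 937 kept their call and direction, 41 gained and 59 lost a call, and 6 changed sign, all in genes not called. Leaving out 1 culture library, the differences of d4c5 minus d4c3 ranged from -0.1214 to 0.2954 for Kit, -0.1598 to 0.2646 for Tfap2c (-0.0085 without d4c3 replicate 2), -0.0763 to 0.0085 for Prdm1, -0.3012 to 0.0471 for Pou5f1 and -0.0234 to 0.5063 for Stra8. Depth limits genes under about 1.36 RPM, such as Trpm1 and Stra8 at day 3.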

Other observations

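A further 15 of the 10856 genes tested moved one way from day 3 to day 5 and the other way from day 5 to day 7. A return to the day 3 level was not required. They had an unadjusted p under 0.05 and no overlap of the groups in each step. A highest culture mean of at least 20 RPM was required, and predicted genes were left out. Of all genes tested, 8.91% had such a p in the first step and 5.62% in the second. Among the 6 named here, limma called 0 between d4c5 and d4c3. Pofut2, a fucosyltransferase gene, had 18.8 and 22.2 RPM in d4c3, 8.18 and 9.94 RPM in d4c5, and 10.2 and 19.8 RPM in d4c7. Cxxc5, a gene for a zinc finger protein that binds unmethylated CpG, had 43.0 and 35.9 RPM in d4c3, 25.3 and 28.5 RPM in d4c5, and 32.6 and 48.4 RPM in d4c7. Haus3, a gene of the augmin complex of the spindle, had 41.1 and 55.9 RPM in d4c3, 74.8 and 61.9 RPM in d4c5, and 42.4 and 48.3 RPM in d4c7. Ankrd32 had the same order of means as Haus3, Hemk1 had that of Pofut2, and Rnf41 had its lowest mean in d4c5 and its highest in d4c7. Both steps use the same d4c5 libraries, so they are not independent.

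Several genes with large differences between d4c5 and d4c3 and no overlap of the groups did not pass the test. Rpl39l, a testis copy of a ribosomal protein gene whose reads may be shared with Rpl39, had 369 and 186 RPM in d4c5, against 108 and 83.1 RPM in d4c3 (1.46 ± 0.31, SE; limma, adjusted p = 0.117). Htra1, a secreted protease gene, had 86.9 and 37.9 RPM in d4c5, against 13.3 and 28.8 RPM in d4c3 (limma, adjusted p = 0.357). Hesx1, a homeobox gene, had 27.7 and 18.1 RPM in d4c5, against 10.2 and 6.65 RPM in d4c3 (limma, adjusted p = 0.177). Among the decreases, Nrk had 12.1 and 12.2 RPM in d4c5, against 50.5 and 23.95 RPM in d4c3 (limma, adjusted p = 0.267). Enpp2, the autotaxin gene, had 7.79 and 14.9 RPM in d4c5, against 39.5 and 20.4 RPM in d4c3 (limma, adjusted p = 0.384). Serpinb9b had 15.6 and 18.1 RPM in d4c5, against 48.5 and 35.3 RPM in d4c3 (limma, adjusted p = 0.207). Pcdhgb8 had 8.31 and 6.78 RPM in d4c5, against 27.8 and 21.98 RPM in d4c3, and shares its last exons with the other protocadherin gamma genes, so its reads are uncertain.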
